A study of Mus musculus with 16 samples.

Results

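This account concerns 10 genes of the basement membrane and its neighbouring matrix, chosen by name as laminin chains (Lama1, Lama4, Lama5, Lamb1 and Lamc1), the proteins that tie laminin into a sheet (Nid1, Nid2 and Hspg2), and the secreted glycoproteins Sparc and Fn1. They were 10 of 19057 genes named on the array, and all 10 were among the 11332 genes tested. The study measured RNA on Illumina bead arrays in mutant and wild-type C57BL/6J mouse conceptuses at 9.5 days post coitum. The 4 groups were mutant yolk sac, wild-type yolk sac, mutant embryo and wild-type embryo, with 2 RNA samples each, and each RNA was hybridized to 2 arrays, which were averaged. Mutants were homozygous for a deletion of exon 6 of rudhira, whose symbol on the array is Bcas3, and wild types came from the same kind of cross between heterozygotes. The labels describe mutant conceptuses as retarded in growth with abnormal vessels and wild-type ones as normally grown and vascularized, so that genotype and developmental delay cannot be told apart.

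A basement membrane is a thin sheet of secreted protein beneath epithelia and around blood vessels. Laminins are trimers of an alpha, a beta and a gamma chain that assemble on cell surfaces into a network, which nidogens and the heparan sulfate proteoglycan perlecan link to a second network of type IV collagen. In the early conceptus the first laminins are made from Lama1 or Lama5 with Lamb1 and Lamc1. The yolk sac wall is an epithelium of visceral endoderm facing a layer of mesoderm with blood vessels, and parietal endoderm outside it lays down Reichert's membrane, an unusually thick basement membrane. The labels do not say whether parietal endoderm was removed when the yolk sacs were dissected.

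Markers of visceral endoderm bore out the tissue labels, with a summed normalized level over 9 genes of 98032 to 98049 in mutant yolk sacs and 7661 to 11001 in mutant embryos, against 108935 to 110873 in wild-type yolk sacs and 530 to 18248 in wild-type embryos. The lowest value was that of wild-type embryo 1. Bcas3 signals before scaling were 234 and 278 in mutant yolk sacs, against 759 and 1244 in wild-type yolk sacs. In embryos these signals were 270 and 664 in mutants, against 331 and 391 in wild types. Normalized log2 levels of Bcas3 were 8.44 and 8.53 in mutant yolk sacs, against 9.61 and 9.90 in wild-type yolk sacs. In embryos the levels were 8.11 and 9.28 in mutants, against 8.34 and 8.62 in wild types. The library labelled mutant embryo 2 therefore had more Bcas3 signal than either wild-type embryo, and the genotype differences in embryos are also given for mutant embryo 1 and wild-type embryo 2 alone, the pair that the series' design text names.

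Yolk sac stood above embryo for most of the 10 genes, in mutants as in wild types. In mutants 7 of 10 were higher in yolk sac at an adjusted p under 0.05 (limma, Benjamini-Hochberg over all tested genes), against a background in which 32.8% of tested genes were higher and 36.5% lower. In wild types 7 of 10 were again higher, against 33.2% of tested genes higher and 36.2% lower. No member was lower in either genotype. Every mutant yolk sac lay above every mutant embryo for 8 of 10 members, against 40.2% of tested genes, and in wild types this held for 10 of 10, against 42.0%. Lama4 passed the detection filter through 5 yolk sac arrays and 1 embryo array, so its place in these counts carries no weight. Without mutant embryo 2 the count past the threshold was 6 in mutants, and without wild-type embryo 1 it was 6 in wild types. The median log2 difference of the members was 0.95 in mutants and 0.99 in wild types, where the median over all tested genes was -0.05 and -0.03. Lama5, Lamb1, Nid1, Nid2, Sparc and Fn1 passed in both genotypes, Hspg2 in mutants and Lamc1 in wild types. RNA was taken from whole tissues, so more cells of a type and more RNA per cell cannot be told apart.

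**Figure D1:**
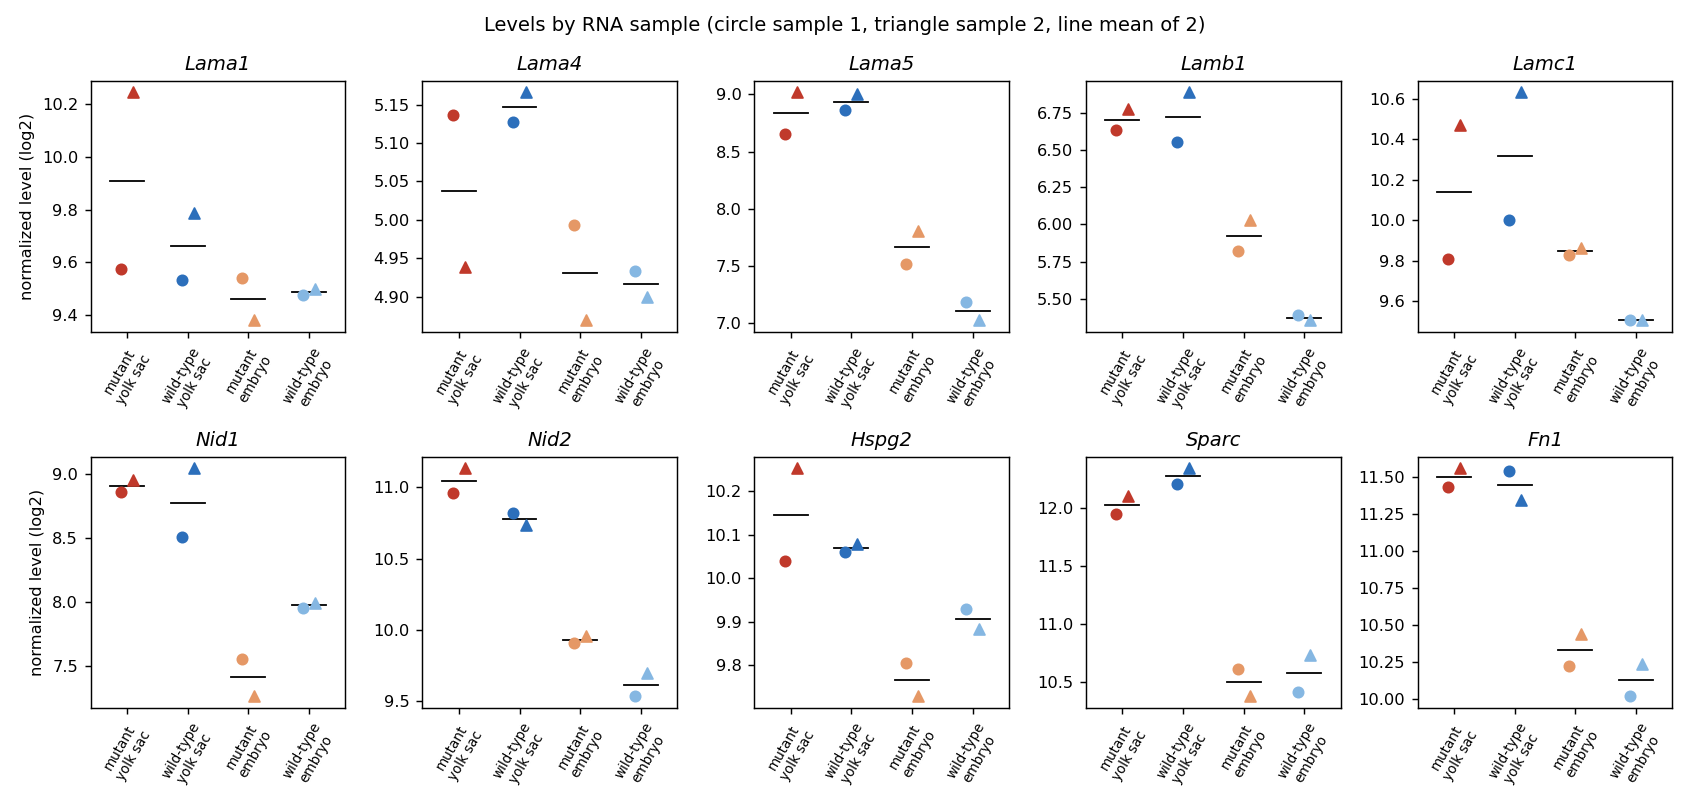
Normalized log2 level of each of the 10 genes (one panel each, with its own vertical axis) in the 8 RNA samples, by group along the horizontal axis; circles are sample 1, triangles sample 2, and lines the mean of both. Yolk sac samples stand above embryo samples of the same genotype for all members in wild types, the dim Lama4 included, and for 8 of 10 in mutants.

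Among the laminin chains, Lama5 had the widest tissue difference. Lama5, the alpha chain found in most epithelial basement membranes, had normalized log2 levels of 8.65 and 9.02 in mutant yolk sacs and 7.52 and 7.81 in mutant embryos. Its levels were 8.87 and 9.01 in wild-type yolk sacs and 7.19 and 7.03 in wild-type embryos. Every yolk sac lay above every embryo, and the embryos differed more between genotypes than the yolk sacs did. The log2 difference between yolk sac and embryo was 1.17 ± 0.16 in mutants (SE; 2.25-fold; adjusted p = 0.000375) and 1.83 ± 0.16 in wild types (SE; 3.56-fold; adjusted p = 3.29e-05).

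Lamb1, the beta chain of the early laminins, followed with 6.64 and 6.77 in mutant yolk sacs, against 5.82 and 6.03 in mutant embryos. In wild types it had 6.56 and 6.88 in yolk sacs, against 5.39 and 5.36 in embryos. These groups did not overlap either, with log2 differences of 0.78 ± 0.14 in mutants (SE; adjusted p = 0.00143) and 1.35 ± 0.14 in wild types (SE; adjusted p = 7.50e-05). Median scaling over all probes gave 0.46 in mutants, with an adjusted p of 0.0642. Lamb1 was detected on all arrays, but its signals in wild-type embryos were only 33.15 and 31.7. The dimmest detected signals on those arrays were 22.6 to 28.8, so the size of its differences from wild-type embryos is uncertain.

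Lamc1, the gamma chain shared by most laminins, had 9.81 and 10.47 in mutant yolk sacs, against 9.83 and 9.86 in mutant embryos. In wild types it had 10.003 and 10.632 in yolk sacs, against 9.50 and 9.51 in embryos. One mutant yolk sac thus lay level with the mutant embryos and the other well above them. The log2 difference was 0.29 in mutants (95% confidence interval -0.30 to 0.88; adjusted p = 0.326) and 0.81 in wild types (0.22 to 1.40; adjusted p = 0.0218). Without mutant yolk sac 2 the mutant difference was -0.04. Without wild-type yolk sac 2 the wild-type difference was 0.50 with an adjusted p of 0.131, and without either wild-type embryo its adjusted p was 0.0660 or 0.0626. A second Lamc1 probe gave 0.78 in mutants (adjusted p = 0.0400) and 0.94 in wild types (adjusted p = 0.0192).

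Lama1, the alpha chain of the first embryonic basement membranes and a main part of Reichert's membrane, did not pass in either genotype. It had 9.57 and 10.24 in mutant yolk sacs, against 9.54 and 9.38 in mutant embryos. Wild-type yolk sacs had 9.53 and 9.79, against 9.48 and 9.50 in wild-type embryos. Mutant yolk sac 2 was the highest of the 8 samples, and the other yolk sacs were close to the embryos. The interval of the log2 difference was -0.04 to 0.94 in mutants (adjusted p = 0.0911) and -0.32 to 0.66 in wild types (adjusted p = 0.481). The mutant difference of 0.45 became 0.78 without mutant yolk sac 1 (adjusted p = 0.00391) and 0.11 without mutant yolk sac 2 (adjusted p = 0.516).

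Lama4, an alpha chain made by endothelial and other mesodermal cells, was near the limit of detection. Its best probe was detected on 2 of 4 mutant yolk sac arrays, 3 of 4 wild-type yolk sac arrays, 1 of 4 mutant embryo arrays and 0 of 4 wild-type embryo arrays. The other 4 Lama4 probes were detected on 0 arrays. Its log2 levels ran from 4.87 to 5.17 over all 8 samples, and no fold could be given because the level in the brighter groups was under the bound set by the dimmest detected probes.

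Of the linking proteins, both nidogens were higher in yolk sac. Nid1, which binds the laminin gamma chain and type IV collagen, had 8.86 and 8.96 in mutant yolk sacs, against 7.56 and 7.26 in mutant embryos. Wild-type yolk sacs had 8.51 and 9.05, against 7.95 and 7.99 in wild-type embryos. No yolk sac overlapped an embryo, and the mutant embryos were the lowest of the 4 groups. The log2 difference was 1.502 ± 0.182 in mutants (SE; 2.83-fold; adjusted p = 0.000219) and 0.80 ± 0.18 in wild types (SE; 1.75-fold; adjusted p = 0.00526). A dimmer Nid1 probe gave 0.42 in mutants (adjusted p = 0.0347) and 0.22 in wild types (adjusted p = 0.216).

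Nid2, the second nidogen, differed between the tissues by nearly the same amount in each genotype. It had 10.96 and 11.13 in mutant yolk sacs, against 9.91 and 9.96 in mutant embryos. Wild-type yolk sacs had 10.82 and 10.74, against 9.54 and 9.70 in wild-type embryos. The log2 difference was 1.11 ± 0.11 in mutants (adjusted p = 6.34e-05) and 1.16 ± 0.11 in wild types (adjusted p = 4.48e-05), with the SE given. For Hspg2, the gene of perlecan, the differences were small. Its levels were 10.04 and 10.25 in mutant yolk sacs, against 9.81 and 9.73 in mutant embryos, and 10.06 and 10.08 in wild-type yolk sacs, against 9.93 and 9.88 in wild-type embryos. The 4 yolk sacs lay just above the 4 embryos, by 0.38 in mutants (adjusted p = 0.0117) and 0.16 in wild types (adjusted p = 0.189) on the log2 scale. The mutant call for Hspg2 was lost without mutant embryo 2 (adjusted p = 0.0651) and without mutant yolk sac 2 (adjusted p = 0.0520).

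Both secreted glycoproteins were higher in yolk sac by their brightest probes. Sparc, a collagen-binding protein made in quantity by parietal endoderm, had 11.95 and 12.10 in mutant yolk sacs, against 10.62 and 10.38 in mutant embryos. Wild-type yolk sacs had 12.20 and 12.34, against 10.42 and 10.74 in wild-type embryos. Its difference was 1.53 ± 0.14 in mutants (SE; 2.89-fold; adjusted p = 5.75e-05) and 1.70 ± 0.14 in wild types (SE; 3.24-fold; adjusted p = 3.01e-05), and 2 further probes gave 1.08 and 1.91 in mutants and 1.66 and 1.65 in wild types. All 3 probes placed every yolk sac above every embryo.

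Fn1, the gene of fibronectin, which the heart and the vessels of the early embryo require, depended on the probe. By the brightest of 4 probes it had 11.43 and 11.56 in mutant yolk sacs, against 10.22 and 10.44 in mutant embryos, and 11.54 and 11.34 in wild-type yolk sacs, against 10.02 and 10.24 in wild-type embryos. Those groups did not overlap, and the log2 difference was 1.16 ± 0.13 in mutants (SE; adjusted p = 0.000136) and 1.31 ± 0.13 in wild types (SE; adjusted p = 6.61e-05). Probe ILMN_2588227 gave 0.93 and 1.70, also past the threshold. Probe ILMN_2646618 gave 0.54 (adjusted p = 0.258) and 0.49 (adjusted p = 0.301). Probe ILMN_1260125 gave -0.11 (adjusted p = 0.775) and -0.31 (adjusted p = 0.393). Wild-type yolk sac 2 was low on both of these last probes, at 6.71 against 8.12 in wild-type yolk sac 1 for ILMN_2646618 and 4.92 against 6.03 for ILMN_1260125. Which transcript regions these probes cover was not analysed here.

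**Figure D2:**
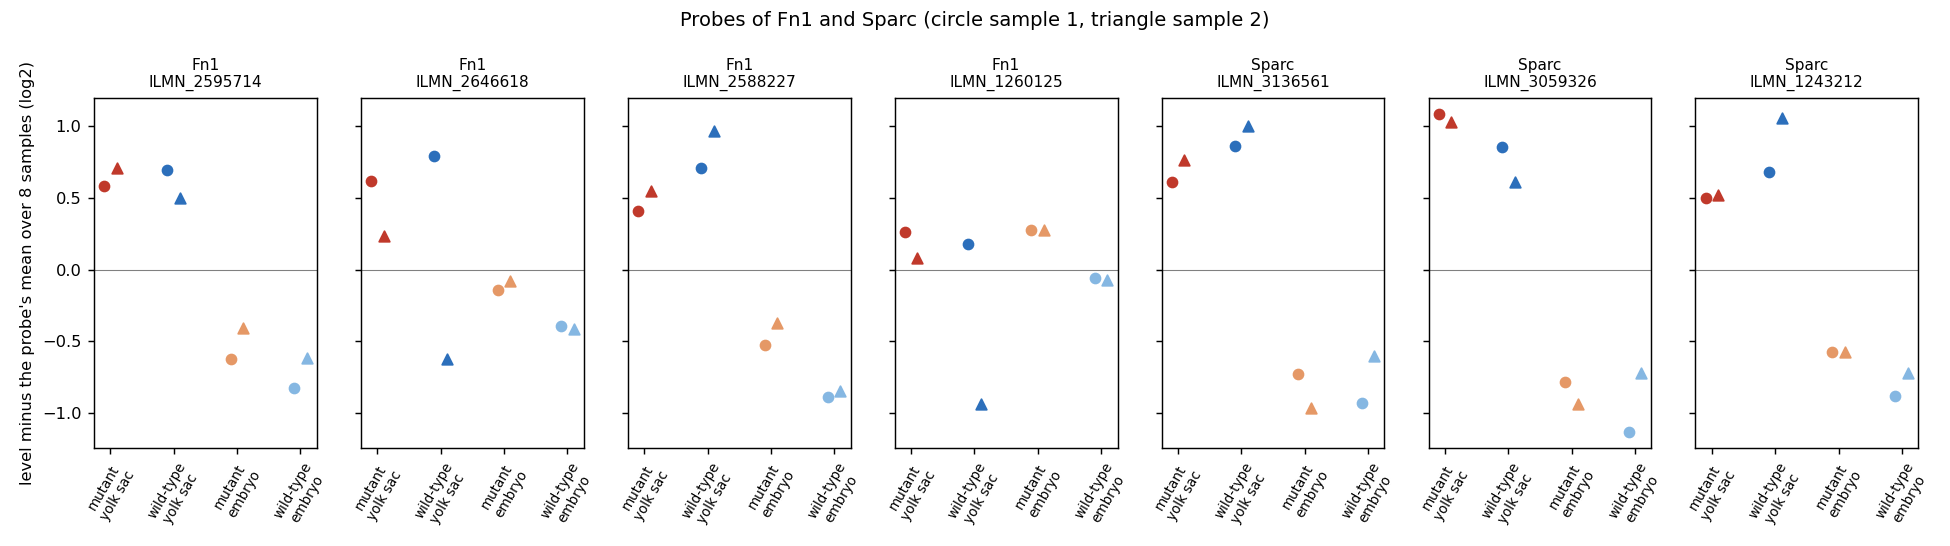
Log2 level of each of 4 Fn1 probes and 3 Sparc probes in the 8 RNA samples, minus the probe's own mean over the 8, by group along the horizontal axis; circles are sample 1 and triangles sample 2. All 3 Sparc probes separate yolk sac from embryo, while wild-type yolk sac 2 stands apart from wild-type yolk sac 1 on Fn1 probes ILMN_2646618 and ILMN_1260125.

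**Figure D3:**
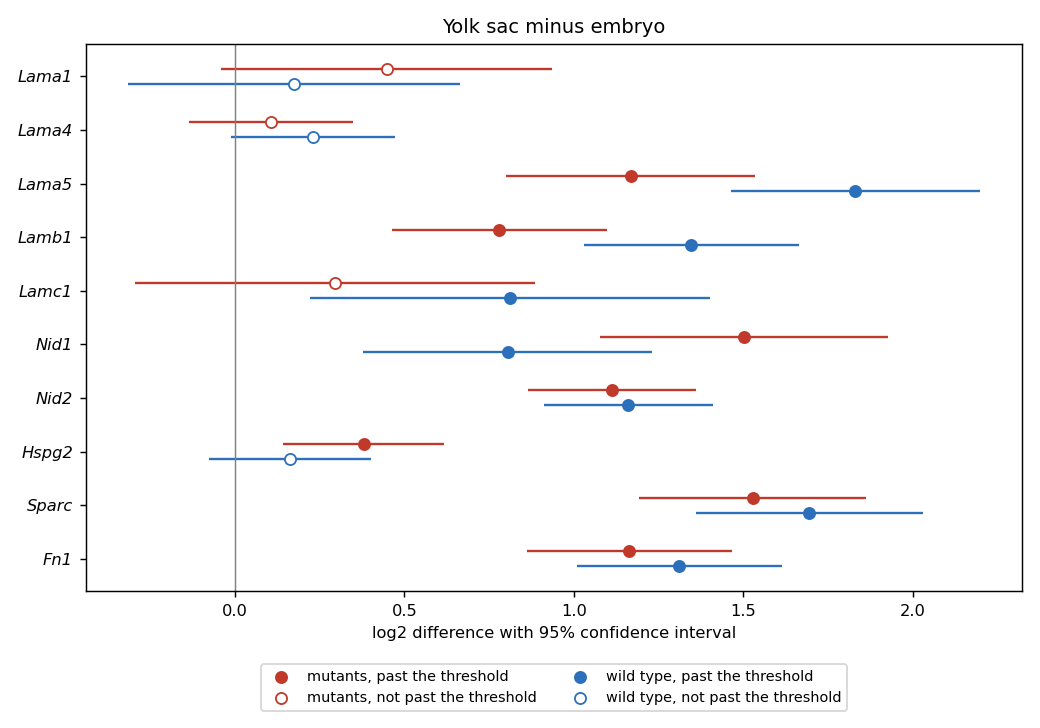
Log2 difference between yolk sac and embryo with its 95% confidence interval for each member, in mutants (red) and wild types (blue); filled circles are past an adjusted p of 0.05 and open circles are not. All 20 points lie to the right of 0.

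**Figure D4:**
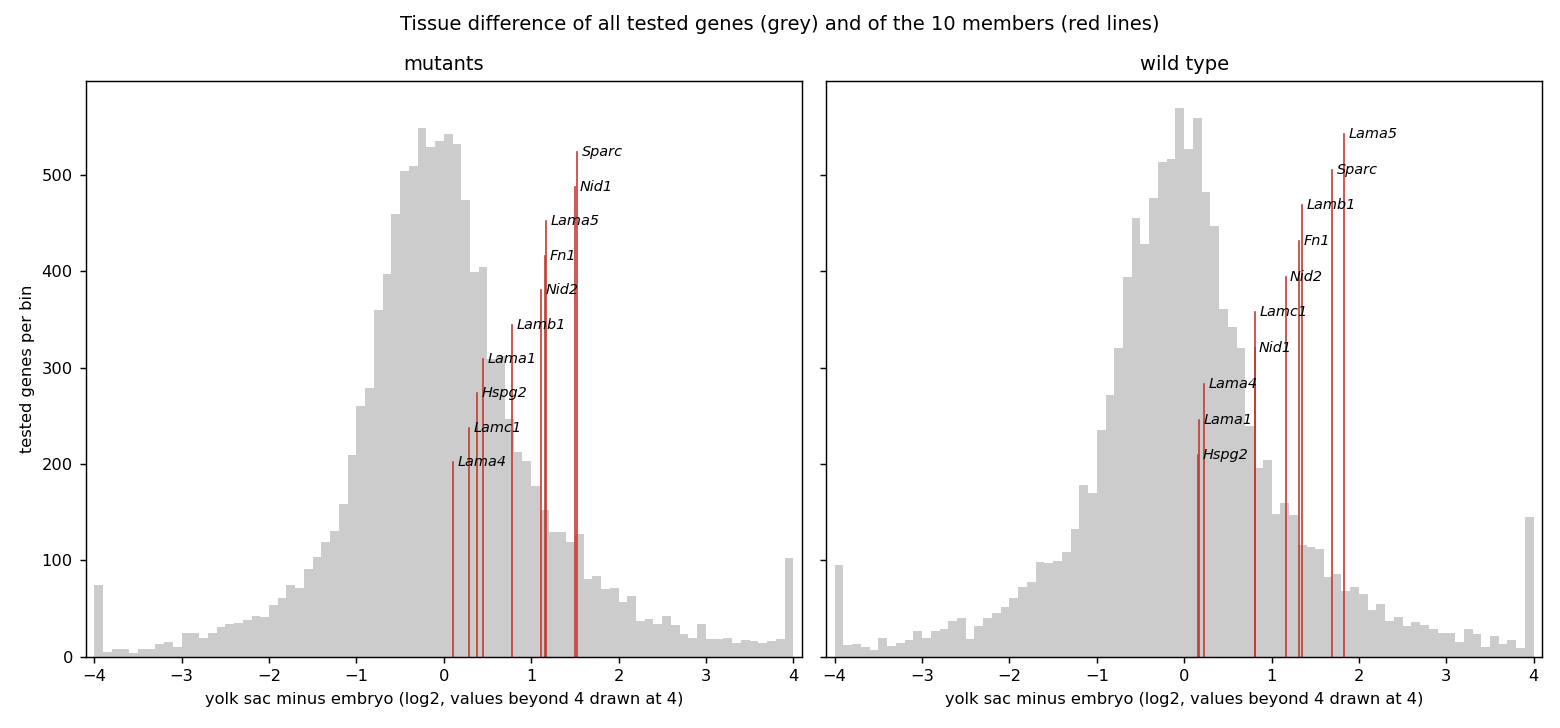
Log2 differences between yolk sac and embryo for all 11332 tested genes (grey bars, genes per bin on the vertical axis) with the 10 members as red lines whose heights only separate the names; mutants left, wild types right. The members' median of 0.95 in mutants and 0.99 in wild types lies to the right of the centre of each distribution.

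Visceral endoderm markers had median log2 differences of 4.31 in mutants and 5.46 in wild types between yolk sac and embryo. Markers of other cell types also differed between the tissues, with the parietal endoderm list split. Of 9 tested markers of parietal endoderm, 6 were higher and 3 lower in yolk sac in mutants, and 4 were higher and 3 lower in wild types, with median log2 differences of 1.08 and 0.44. Plat, Fst and Snai1 were the lower ones in both. The summed level of the list, of which Rhox5 and Cited1 made up 87.1 to 93.9% in the yolk sacs, was 13450 to 13634 in mutant yolk sacs and 2760 to 3168 in mutant embryos, against 14574 to 15525 in wild-type yolk sacs and 2127 to 3286 in wild-type embryos. Rhox5 stood at 9.02 and 9.78 in mutant embryos 1 and 2 and at 5.51 and 10.28 in wild-type embryos 1 and 2. Over these embryos it had the same order as the summed visceral endoderm markers, but over the wild-type yolk sacs it did not. Whether the sum is particular to parietal endoderm was not tested. The marker Gkn2 was detected on 0 arrays. Mesenchyme and mesothelium markers were higher for 6 of 8 and lower for 1 in each genotype. Endothelial markers were higher for 8 of 10 in mutants and 7 of 10 in wild types, and lower for 1 in each. The part of these cell types in the members' differences was not tested.

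Promoter sequences are shown for the genes that passed between the tissues in both genotypes and have an entry in the RefSeq promoter table, to let their upstream sequence be set side by side. Of the 10 members 5 had an entry, Hspg2 being the fifth. Each runs 5′ to 3′ on the gene's strand from 250 bases before to 50 bases after the RefSeq start in the build GRCm38.p6, and capitals mark the GC box GGGCGG or its reverse complement. The window of Lama5 is chr2:180225810-180226109 on the minus strand, that of Lamb1 chr12:31265043-31265342 on the plus strand, that of Nid1 chr13:13437352-13437651 on the plus strand and that of Sparc chr11:55420031-55420330 on the minus strand.
Lama5: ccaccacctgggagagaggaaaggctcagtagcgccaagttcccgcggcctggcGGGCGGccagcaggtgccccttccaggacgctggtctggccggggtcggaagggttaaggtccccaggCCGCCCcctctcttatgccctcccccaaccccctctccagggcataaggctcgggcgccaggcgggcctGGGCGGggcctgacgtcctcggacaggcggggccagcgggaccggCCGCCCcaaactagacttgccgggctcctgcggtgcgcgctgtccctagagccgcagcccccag
Lamb1: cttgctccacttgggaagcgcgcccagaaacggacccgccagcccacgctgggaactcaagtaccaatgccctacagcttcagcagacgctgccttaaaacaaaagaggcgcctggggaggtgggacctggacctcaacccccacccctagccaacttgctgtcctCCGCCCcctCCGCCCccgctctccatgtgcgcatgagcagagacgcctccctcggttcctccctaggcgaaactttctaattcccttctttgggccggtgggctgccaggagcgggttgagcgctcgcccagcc
Nid1: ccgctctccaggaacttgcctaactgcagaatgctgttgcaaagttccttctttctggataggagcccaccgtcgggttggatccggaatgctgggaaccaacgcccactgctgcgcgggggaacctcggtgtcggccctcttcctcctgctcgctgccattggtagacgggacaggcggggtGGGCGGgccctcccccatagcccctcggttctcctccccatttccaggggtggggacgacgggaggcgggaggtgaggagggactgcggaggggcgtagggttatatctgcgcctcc
Sparc: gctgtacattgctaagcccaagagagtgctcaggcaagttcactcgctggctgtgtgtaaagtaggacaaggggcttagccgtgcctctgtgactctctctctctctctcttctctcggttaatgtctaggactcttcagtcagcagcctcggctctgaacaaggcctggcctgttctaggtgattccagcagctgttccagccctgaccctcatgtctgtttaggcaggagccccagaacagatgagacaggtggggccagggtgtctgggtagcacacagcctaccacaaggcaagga
The GC box occurred 4 times in the Lama5 window, 2 times in that of Lamb1, 1 time in that of Nid1 and 0 times in that of Sparc, where 35.7% of 32851 promoters of this length in the table hold it at least once. The Hspg2 window (chr4:137468553-137468852, plus strand) held it 5 times. On neither strand did any of the 5 windows hold the E-box letters CACGTG (held by 7.2% of the table's promoters), the Fos and Jun letters TGACTCA (5.2%) or the GATA factor letters AGATAA (11.2%).

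Between mutant and wild-type yolk sacs, the comparison that the series' design sets out, 0 of 10 members passed the threshold, against 1.27% of tested genes. At an unadjusted p under 0.05 there was 1 of 10, against 20.9% of tested genes. By the brightest probe of each gene, the log2 differences ran from -0.25 for Sparc to 0.27 for Nid2. Their median was 0.02, and 5 of 10 were above 0. The widest of their intervals, that of Lamc1, ran from -0.77 to 0.41. None of them reached a log2 difference of 1 in either direction, a limit that covers the brightest probes only. Dimmer Fn1 probes gave 0.55 ± 0.31 (ILMN_1260125), 0.34 ± 0.39 (ILMN_2646618) and -0.36 ± 0.12 (ILMN_2588227), with the SE given.

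Nid2 was the 1 member under that unadjusted limit. Its levels of 10.96 and 11.13 in mutant yolk sacs lay above the 10.82 and 10.74 in wild-type yolk sacs, with a log2 difference of 0.27 ± 0.11 (SE; adjusted p = 0.214). Sparc lay the other way by its brightest probe, at -0.25 ± 0.14 (SE; adjusted p = 0.374), with both mutants below both wild types. Its other probes gave -0.36 (adjusted p = 0.213) and 0.33 (adjusted p = 0.299), so the probes did not share a direction. Groups did not overlap for these 2 members of 10, against 47.9% of tested genes (23.8% with mutants above and 24.1% with mutants below).

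Before scaling, the signals of all 10 members were lower in mutant than in wild-type yolk sacs, at ratios from 0.526 for Lama4 to 0.879 for Nid2. The same held for 93.7% of tested genes, and the median ratio over genes detected on all arrays was 0.685. The 75th percentile of signal was 67.0 to 74.8 on mutant yolk sac arrays and 97.6 to 140.7 on wild-type yolk sac arrays. The direction of most members in yolk sac depended on the scaling, while Nid2 stayed above 0 (0.05 to 0.47) and Lama4 below it (-0.30 to -0.01) under all 16 alternatives. Several of these alternatives, such as leaving out an embryo sample, keep the yolk sac difference itself unchanged. Lama4 was near the limit of detection, so its direction carries no weight. The scaling moved the median over all genes to -0.23 with a median scaling over all probes and to 0.11 with a scaling over probes detected on all arrays, with 1 of 10 and 7 of 10 members above 0. No member passed under either. Endothelial markers had a summed level of 7960 to 8361 in mutant yolk sacs and 5983 to 6366 in wild-type yolk sacs, with 1 of 10 past the threshold. Parietal endoderm markers had 1 of 9 past it, Sox7 at 0.96 (adjusted p = 0.0390), with a median of 0.41. Trophoblast markers had 1 of 3 past it, with a median of 1.03 and a summed level of 1852 to 2448 in mutant yolk sacs and 552 to 1379 in wild-type yolk sacs. The part of these cell types was not tested.

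**Figure D5:**
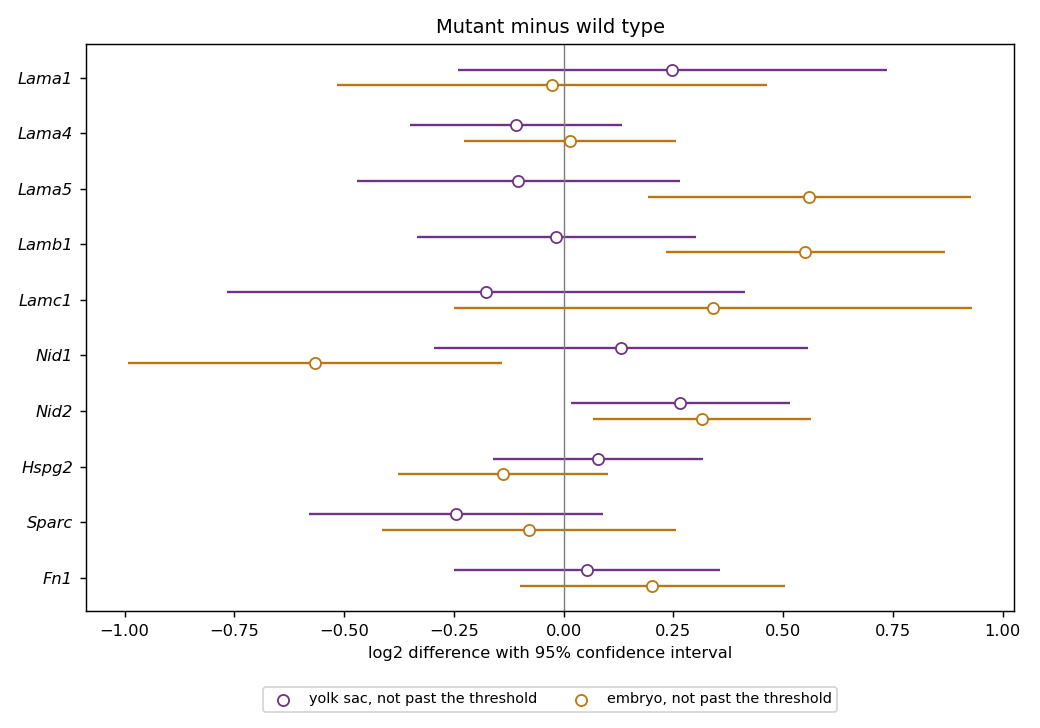
Log2 difference between mutant and wild type with its 95% confidence interval for each member, in yolk sac (purple) and embryo (orange); open circles are not past an adjusted p of 0.05. None of the 20 points is past the threshold, and Lama5, Lamb1 and Nid1 in embryo lie furthest from 0.

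In embryos 0 of 10 members passed between mutant and wild type, against 2.13% of tested genes. At an unadjusted p under 0.05 there were 4 of 10 (Lama5, Lamb1, Nid1 and Nid2), against 12.5% of tested genes. That count was 1 without mutant embryo 2 and 0 for mutant embryo 1 against wild-type embryo 2. Groups did not overlap for 6 of 10, against 51.9% of tested genes. Mutants lay above for 4 (Lama5, Lamb1, Lamc1 and Nid2), against 25.2% of tested genes, and below for 2 (Nid1 and Hspg2), against 26.7%. The members' median log2 difference was 0.11. Neural tube markers were lower in mutant embryos for 3 of 6 tested, with a summed level of 1329 to 1581 in mutant embryos and 2347 to 2393 in wild-type embryos. No other marker list had a call. Median log2 differences were 1.15 for visceral endoderm, 0.99 for trophoblast and -0.74 for primitive erythroid markers. Visceral endoderm sums were 7661 and 11001 in mutant embryos 1 and 2, and 530 and 18248 in wild-type embryos 1 and 2. Primitive erythroid sums were 66015.8 and 34492.5 in mutant embryos, against 73902 and 75119 in wild-type embryos. The part of these cell types in the members' differences was not tested.

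For Lama5 the mutant embryos at 7.52 and 7.81 stood above the wild-type embryos at 7.19 and 7.03, a log2 difference of 0.56 ± 0.16 (SE; 1.47-fold; adjusted p = 0.173). For Lamb1 mutant embryos at 5.82 and 6.03 stood above wild-type embryos at 5.39 and 5.36, a difference of 0.55 ± 0.14 (SE; 1.46-fold; adjusted p = 0.117). The wild-type embryo signals of Lamb1 were close to the dimmest detected signals, so the size of that difference is uncertain. Lamc1 lay the same way at 0.34 ± 0.25 (SE; adjusted p = 0.669), with 2 mutants above 2 wild types. These chains of 1 early laminin trimer thus had the same sign in embryos, without a member passing. In mutant embryo 1 against wild-type embryo 2 alone, the difference was 0.50 for Lama5 (adjusted p = 0.950), 0.46 for Lamb1 (adjusted p = 0.974) and 0.32 for Lamc1. That fit assumes that a lone sample varies like the other groups.

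Nid1 lay the other way, with 7.56 and 7.26 in mutant embryos, against 7.95 and 7.99 in wild-type embryos, a log2 difference of -0.57 ± 0.18 (SE; adjusted p = 0.237). Its dimmer probe gave -0.16 (adjusted p = 0.803), and the pair of embryos named in the design text gave -0.44. Nid2, the other nidogen, stood at 0.31 ± 0.11 (SE; adjusted p = 0.269), so that the pair of nidogens had opposite signs in embryo. Hspg2 stood at -0.14 (adjusted p = 0.668). In the pair of embryos named in the design text Nid2 stood at 0.21 and Hspg2 at -0.08. Lama1, Lama4 and Sparc had overlapping groups, with differences from -0.08 to 0.01. Fn1 gave 0.20 by its brightest probe (adjusted p = 0.611), and its other 3 probes gave 0.29 to 0.42. In that pair of embryos its brightest probe gave -0.01, Lama1 0.04, Lama4 0.09 and Sparc -0.12.

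The difference between the genotype effects in yolk sac and in embryo passed for 0 of 10 members, against 0.335% of tested genes. At an unadjusted p under 0.05 there were 3 of 10, against 18.7% of tested genes. That count was 0 without mutant embryo 2, 0 without wild-type embryo 2, 1 without wild-type yolk sac 2, 2 without wild-type embryo 1 or mutant yolk sac 1, and 0 for the pair of embryos named in the design text. The 3 were Lama5 at -0.66 ± 0.22 (SE; adjusted p = 0.184), Lamb1 at -0.57 ± 0.19 (SE; adjusted p = 0.185) and Nid1 at 0.70 ± 0.26 (SE; adjusted p = 0.212). For Lama5 and Lamb1 the yolk sac effects were -0.10 and -0.02, beside embryo effects of 0.56 and 0.55. For Nid1 they were 0.13 in yolk sac and -0.57 in embryo. Fn1 probe ILMN_2588227 gave -0.77 ± 0.17 (SE; adjusted p = 0.103), with -0.36 in yolk sac and 0.42 in embryo, while the brightest Fn1 probe gave -0.15 (adjusted p = 0.707).

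Samples of the same group differed for some members by as much as the genotypes did. In yolk sacs sample 2 exceeded sample 1 for 9 of 10 members in mutants and 8 of 10 in wild types, where 52.2% and 59.2% of tested genes did so. The largest such gaps were 0.67 for Lama1 and 0.66 for Lamc1 in mutants and 0.63 for Lamc1 and 0.54 for Nid1 in wild types. In embryos sample 2 was higher for 5 of 10 members in mutants and 6 of 10 in wild types. Numbers 1 and 2 only name the samples and carry no order. The mean log2 level of the 9 parietal endoderm markers was 8.17 and 8.52 in mutant yolk sacs 1 and 2 and 7.79 and 8.18 in wild-type yolk sacs 1 and 2. Pth1r, a parathyroid hormone receptor of parietal endoderm, had 8.29 and 9.24 in mutant yolk sacs, against 8.22 and 8.33 in wild-type yolk sacs. Fst had 5.34 and 7.41 in mutant yolk sacs, and 4.93 and 6.25 in wild-type yolk sacs. The markers did not move together, since Thbd, Rhox5 and Srgn were lower in mutant yolk sac 2 than in mutant yolk sac 1. In wild-type yolk sacs Plat and Sox7 were lower in sample 2. The summed level of the list was 13634 and 13450 in mutant yolk sacs 1 and 2. The part of these cells in the members' spread was not tested.

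The type IV collagens, whose chains form the other network of the sheet, were split between the tissues. Col4a1 and Col4a2, the most widespread chains, were higher in yolk sac in both genotypes. Col4a1 had 12.66 and 13.11 in mutant yolk sacs, against 11.46 and 11.66 in mutant embryos, and 12.70 and 12.92 in wild-type yolk sacs, against 11.40 and 11.68 in wild-type embryos. Col4a2 had 11.39 and 11.95 in mutant yolk sacs, against 10.60 and 10.55 in mutant embryos, and 11.59 and 11.80 in wild-type yolk sacs, against 10.63 and 10.75 in wild-type embryos. They were the 2 basement membrane collagens of 6 tested that were higher in yolk sac, while 3 were lower in mutants and 2 in wild types. Col4a5, a chain of other type IV collagen trimers, was lower at -1.17 in mutants (adjusted p = 0.000834) and -0.49 in wild types (adjusted p = 0.0464). Col4a6 stood at -1.05 in mutants (adjusted p = 0.000786) and -0.30 in wild types (adjusted p = 0.134). Col18a1, of another collagen type, was lower at -0.49 in mutants (adjusted p = 0.00242) and -0.37 in wild types (adjusted p = 0.00900). These collagens were named after their values were seen.

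Other matrix genes were split. Of 11 further basement membrane proteins 5 were higher and 3 lower in yolk sac in mutants, and 6 higher and 2 lower in wild types. Tinagl1, a secreted matrix glycoprotein related to cathepsins, was the highest at 2.97 in mutants (adjusted p = 4.93e-05) and 3.17 in wild types (adjusted p = 3.12e-05). Of 7 laminin receptors 4 were higher and 2 lower in mutants, and 6 higher and 0 lower in wild types. Itgb4, the integrin subunit of hemidesmosomes, stood at 2.48 in mutants (adjusted p = 4.00e-05). It lay the same way in wild types, with 8.57 and 8.02 in yolk sacs, against 5.57 and 6.00 in embryos.

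Among 16 tested genes of matrix secretion and cross-linking, 11 were higher in yolk sac in mutants and 14 in wild types, and 0 were lower. Of 8 cell surface proteoglycans 2 were higher and 5 lower in each genotype, with Gpc1, a glypican, at -4.03 in mutants and -4.41 in wild types. Of 6 fibronectin receptors 2 were higher and 2 lower in mutants, and 2 higher and 1 lower in wild types, with Itga9, an integrin alpha subunit, at -2.58 and -2.64. Of 4 other laminin chains 1 was higher and 2 lower in mutants, and 1 higher and 1 lower in wild types. Of 5 secreted glycoproteins related to Sparc and Fn1, 3 were higher and 2 lower in mutants, and 2 of each in wild types. Vtn, the gene of vitronectin, stood at -2.77 in wild types. In mutants it lay the same way, with 5.29 and 5.17 in yolk sacs, against 7.48 and 6.94 in embryos.

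Between genotypes few of these genes passed, and 0 of all tested genes did in yolk sac with the first arrays alone or in embryo with the authors' processed values. In yolk sac P3h2, a prolyl hydroxylase of type IV collagen, was higher in mutants at 0.77 ± 0.13 (SE; adjusted p = 0.0436), with 8.79 and 8.95 in mutant yolk sacs, against 8.23 and 7.98 in wild-type yolk sacs. P3h2 also rose in embryos, with 7.93 and 8.13 in mutants, against 7.26 and 7.18 in wild types, a difference of 0.82 ± 0.13 (SE; adjusted p = 0.0249). The yolk sac call held under 3 of 17 other settings, and not without mutant embryo 2 (adjusted p = 0.0919). P4ha2, a prolyl hydroxylase of collagens, was higher in mutant embryos at 0.68 (adjusted p = 0.0461). Vtn was lower there at -1.25 (adjusted p = 0.0208), with 7.48 and 6.94 in mutants, against 8.32 and 8.60 in wild types. In mutant embryo 1 against wild-type embryo 2 alone, P3h2 stood at 0.75 (adjusted p = 0.368), P4ha2 at 0.45 (adjusted p = 0.796) and Vtn at -1.11 (adjusted p = 0.0925). Of 18 other settings in embryo, P3h2 passed under 12, P4ha2 under 3 and Vtn under 10, and none of them passed without mutant embryo 2 or without wild-type embryo 1.

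Lamc3, another laminin gamma chain, was the laminin gene that passed between genotypes. It was detected on 0 of 4 mutant embryo arrays and 4 of 4 wild-type embryo arrays, which made it at least 1.77-fold lower in mutant embryos (adjusted p = 0.0101). Its levels were 5.04 and 4.81 in mutant embryos, against 5.91 and 5.89 in wild-type embryos. In mutant embryo 1 against wild-type embryo 2 alone the difference was -0.85 (adjusted p = 0.170), without mutant embryo 2 the adjusted p was 0.0547, and without wild-type embryo 1 it was 0.0539. The genotype effects of Lamc3 also differed between the tissues (1.09; adjusted p = 0.0448). With the conceptus as a block that adjusted p was 0.127, without mutant embryo 2 it was 0.132, and the call held under 6 of 16 other settings. Lamc3 was detected on 0 yolk sac arrays and so was not well above background there. It met the detection filter of at least 4 arrays only through the wild-type embryos, the group where it is high. Its place among the tested genes thus depends on the difference itself, and its calls carry no weight as separate evidence.

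The tested genes whose levels followed each member most closely over the 8 samples were found by the root mean square difference after centring each gene on its mean. For the members that passed in both genotypes these were Bag2 for Lama5 (0.0801), Ptpn14 for Lamb1 (0.101), Fbxo6 for Nid1 (0.155), Slc30a7 for Nid2 (0.0858), Lefty1 for Sparc (0.0733) and Tab3 for Fn1 (0.0497), on the log2 scale. For Lama1, Lamc1 and Hspg2 they were Fam169b (0.102), Baz2a (0.0930) and Dus1l (0.0387). The dim Lama4 was closest to Pam16 (0.0364). These distances depend on how much a member itself varied over the 8 samples. That root mean square spread was 0.110 for Lama4, 0.158 for Hspg2 and 0.257 for Lama1, against 0.631 for Fn1 and 0.819 for Sparc. A small distance for a member that varied little shows little. Among the members themselves Nid2 and Fn1 were the closest pair, at 0.113.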

How the data were processed

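Trizol-extracted RNA was made into biotinylated cRNA, per the labels. The deposited table holds probe intensity on a linear scale with background subtracted and no scaling between arrays, judged from its values. The same deposited table holds columns headed as p-values, used here as a score from 0 to 1 that rises with brightness. How the authors made the scores is not given in the sources used here. Because the scores did not follow the signals beside them (Spearman correlation 0.00157 to 0.0106), they were matched to signals by rank within each array. Both detection and the background correction used the matched scores. The normalized levels and the differences drawn from them, under the median scalings too, therefore rest on that assumption. The deposited processed values are on a log2 scale and, judged from the values, were centred by the authors within each tissue, so they served as an alternative for the genotype comparisons.

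Intensities were background corrected and quantile normalized with neqc (offset 16) in limma 3.58.1 under R 4.3.3. Repeat arrays were averaged, probes detected (p under 0.05) on at least 4 of 16 arrays were kept (21195 of 45281), and the brightest kept probe stood for a gene. Of the probes 34885 had 1 symbol, 18 several and 10378 none. The 22 member probes left 18, with 1 kept probe for 5 members and several for the other 5. The fit used 4 group means, 5 contrasts and Benjamini-Hochberg adjustment over 11332 genes, with 4 residual degrees of freedom, and was tested on simulated data. Intervals for single genes are not adjusted for the number of genes.

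With 2 samples per group, a p-value reflects only how far samples of the same group lie apart, pooled for each gene over all 4 groups. The fit then drew this spread toward that of all tested genes (3.35 prior degrees of freedom). A p-value thus does not measure the spread of the 2 compared groups alone. For Lamc1 the standard deviation was 0.47 and 0.45 in yolk sacs but 0.026 and 0.0029 in embryos, mutants first. The spread may be partly technical, and the number of arrays limits the precision. By the labels, embryo and yolk sac of the same sample code came from 1 conceptus; deviations of such pairs correlated at 0.220 in mutants and 0.0423 in wild types over 11332 genes. Across genotypes samples share only a number. The members, lists and tests were chosen with earlier results of these data known. Of the other matrix lists, at most 4 genes per comparison are named, those past the threshold with the largest difference. The collagens are an exception, being named after their values were seen. Also left out were 20 empty columns.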

Additional observations from a re-analysis of the deposited data

How the results depend on the processing

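Over 15 to 17 other settings per comparison the count of members past the threshold stayed at 0 of 10 between genotypes in yolk sac, in embryo and in the difference between the tissues. It ran from 5 (median scaling) to 8 (first arrays only) in mutants and from 6 to 8 in wild types for yolk sac against embryo, where it was 7 and 7. Leaving out each sample in turn gave 6 to 8 in mutants and 6 to 7 in wild types. With the conceptus as a replicate block the counts were 7 in mutants, 7 in wild types and 0 for the difference between tissues, and with the shared number as a block the genotype counts were 0, so the block changed no call on the members. Of 760 member values under these settings 748 stayed on their side of the threshold, 8 fell short of it, 4 passed it and 0 reversed a call. Many settings, such as a block or leaving out a sample of another group, keep the difference itself and change only its spread. The 748 are therefore not separate repeats of each result. Of the 748, 40 changed sign with neither value past the threshold. Median scaling took Lamb1 (0.46; adjusted p = 0.0642) and Hspg2 (0.31; adjusted p = 0.133) below the threshold in mutants, and Lamc1 fell short in wild types with no detection filter (adjusted p = 0.0517); the cause was not tested.

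The Fn1 probe ILMN_1260125 gave a tissue difference of -0.11 in mutants and -0.31 in wild types, against 1.16 and 1.31 for the brightest probe. Alternatives by probe and the median scaling on detected probes were chosen after seeing the data. Lama1 passed in mutants when scaled on detected probes (0.64; adjusted p = 0.0308). Hspg2 passed in wild types under both median scalings (0.43 and 0.30). Lama4 passed on first arrays alone (adjusted p = 0.0469 in mutants and 0.0251 in wild types). Between genotypes, counts over all genes ran from 0 to 601 around 144 in yolk sac and from 0 to 244 around 241 in embryo. For the difference between tissues they ran from 0 to 143 around 38. These are 1.27%, 2.13% and 0.335% of tested genes, too few for the members' steady count of 0 to show stability. For yolk sac against embryo in mutants, all genes ran from 6775 to 8328 around 7848, and members from 5 to 8 around 7. In wild types all genes ran from 6551 to 8244 around 7870, and members from 6 to 8 around 7. With 2 samples per group and signals near background for Lama4, small differences could not be detected.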
